A study of Mus musculus with 8 samples.

Results

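The SLC25 carriers are a protein family, most members of which move metabolites, nucleotides and cofactors across the inner membrane of mitochondria. They were followed here in the soleus, an oxidative muscle of the calf with many slow fibres, of mice aged 2 months. The set was taken from the deposited expression table as every gene whose symbol starts with Slc25a, kept where its FPKM averaged at least 1 across the 8 libraries. FPKM is a fragment count divided by transcript length and by sequencing depth, so levels can be compared between genes. The carnitine carrier Slc25a20 was left out by definition. Of the 44 Slc25a genes in the table, 6 lay under the minimum, which left 37 carriers among the 24033 genes listed and the 12535 tested. The minimum is on the mean over both genotypes and not on either of them.

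The 4 control mice, called MyoCre, had the genotype Myogenin-Cre/+. The 4 K15-SKO mice had the genotype Myogenin-Cre/+;K15F/F, that is, Cre as in the controls and, in addition, floxed Klf15 (K15), the gene of a Kruppel-like zinc finger transcription factor. Both genotypes therefore carried the recombinase, and the floxed alleles were present in K15-SKO mice alone. Cre driven from the myogenin gene is active in the skeletal muscle lineage, so the other cells of the muscle keep Klf15. In whole muscle, fewer cells of a type and less RNA per cell cannot be told apart.

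Each SLC25 carrier is a small protein built of repeated units, and most exchange a solute of the matrix for a solute of the intermembrane space. In oxidative muscle the family is best known for ADP/ATP exchange and phosphate entry, which feed ATP synthesis, and for the shuttles that bring reducing equivalents and carbon skeletons into the matrix. Other members carry amino acids, coenzyme A, NAD, S-adenosylmethionine, folate, iron or glutathione, and several have no settled substrate.

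Klf15 itself fell to 38.9% of the control level, from 41.6 ± 12.7 in MyoCre to 16.2 ± 2.58 FPKM in K15-SKO muscle (means ± SD, n = 4 in each genotype, as throughout; log2 fold change -1.28, SE 0.25, limma adjusted p = 0.0315, where the threshold is 0.05). Its genotypes did not overlap, and an exact permutation test, two-sided, gave p = 0.0286, the smallest value that 70 assignments of the libraries allow. The limma call for Klf15 passed in 7 of 20 alternative fits, and it ended without MyoCre replicate 1, 2 or 3 (adjusted p = 0.135, 0.0932 and 0.218) or without K15-SKO replicate 1, 3 or 4 (0.0937, 0.151 and 0.0540). Depth estimated from the FPKM steps was 7170000 to 21900000 fragments per library. Skeletal muscle markers such as Ckm, Mb and Myh7 summed to between 13491 and 26698 FPKM in the libraries of both genotypes. K15-SKO replicate 3 stood apart, with a median-of-ratios factor (a library's median gene relative to the other libraries) of 0.80 against 0.96 to 1.16 elsewhere, and 2039 FPKM of erythroid markers against 284.1 to 578.1. MyoCre replicate 2 was the deepest library and the only male, with 16.2 FPKM on average over 4 Y-linked genes against 0 in the other 7.

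The family spanned more than 3 orders of magnitude in level, and a few members held most of it. Slc25a4, the muscle ADP/ATP exchanger, was the most abundant, at 2319.6 ± 188 FPKM in MyoCre muscle and 2100.5 ± 345 FPKM in K15-SKO muscle, and ranked 33 among the 12535 genes tested. Slc25a3, the phosphate carrier, followed with 783 ± 61.9 and 782 ± 155 FPKM. Next came Slc25a11, which exchanges oxoglutarate for malate, with 192 ± 26.5 and 171 ± 12.1 FPKM, and the aspartate/glutamate carrier Slc25a12 with 85.5 ± 10.1 and 77.7 ± 10.5 FPKM. Together with Slc25a5, these 5 genes made up 92.0% to 93.6% of the summed FPKM of the 37 carriers in each library. Slc25a4 alone took 57.9% to 65.2% of that sum. The other 32 had means over all libraries from 1.01 FPKM for Slc25a13 to 28.5 FPKM for Slc25a51.

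**Figure D1:**
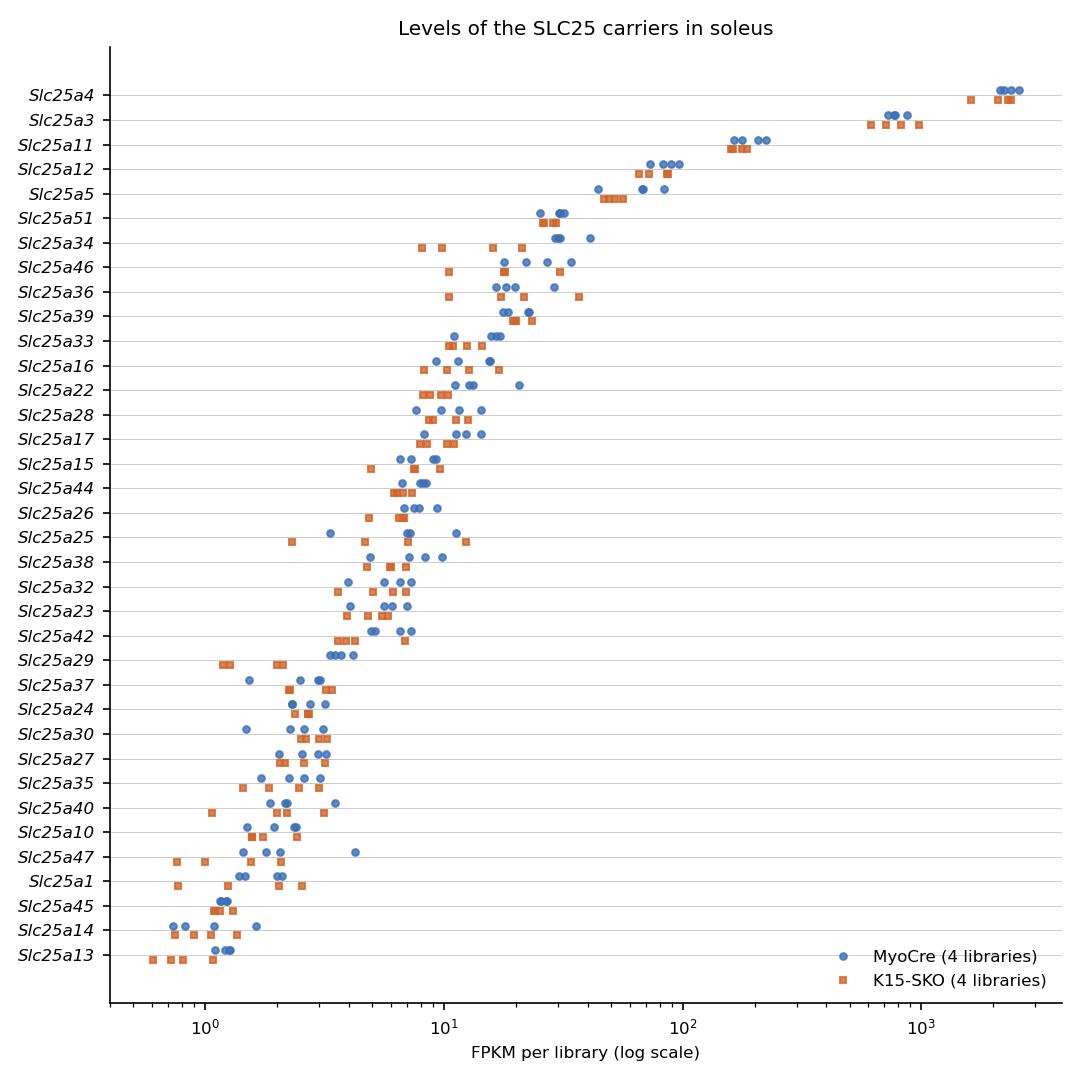
Levels of 36 of the 37 SLC25 carriers, ordered by their mean over 8 libraries. The horizontal axis is FPKM on a log scale, and each point is 1 library (circles MyoCre, squares K15-SKO). Slc25a4 and Slc25a3 stand far to the right, and the groups separate for Slc25a34 and Slc25a29.

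The 6 genes under the minimum were Slc25a2, Slc25a18, Slc25a21, Slc25a31, Slc25a43 and Slc25a53. Their means ran from 0.0063 FPKM for the oxodicarboxylate carrier Slc25a21, listed at 0 in 7 of 8 libraries, to 0.292 FPKM for Slc25a2. Slc25a31, an ADP/ATP exchanger of male germ cells, was listed at 0 in 6 libraries. Slc25a18, a glutamate carrier, had a mean of 0.116 FPKM. At such values an absence cannot be told from too few fragments.

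Between the genotypes, 1 of 37 carriers fell past the threshold, Slc25a29, and 0 rose. Over all 12535 genes 0.183% were lower and 0.367% higher by the same rule, an adjusted p under 0.05 in limma. All 46 genes called higher were listed at 0 in every MyoCre library, and 0 genes with values in both genotypes were called higher. Such a 0 can be a failed estimate, since the muscle actin Acta1 and the respiratory chain subunit Cox4i1 were among the 46. These genes also entered the adjustment. With genes at 0 in all libraries of a genotype left out, 0 carriers and 12 of 12376 genes were lower past the threshold. Slc25a29 then had a limma adjusted p of 0.0986. At an unadjusted p under 0.05, 3 carriers were lower, Slc25a29, Slc25a34 and Slc25a22, and 0 were higher, where 3.43% of all genes were lower and 0.901% higher. In 5 carriers all K15-SKO libraries lay below all MyoCre libraries, and in 0 above, where 2.72% of all genes lay below and 0.63% above. These were Slc25a34, Slc25a29, Slc25a22, Slc25a13 and Slc25a26. Slc25a13 reached the minimum through its MyoCre libraries alone, and among genes with a mean of at least 1 in both genotypes the count was 4 of 36 carriers, beside 2.61% of 12074 genes. On values scaled by median-of-ratios factors the 5 became 3 (Slc25a34, Slc25a29 and Slc25a26), beside 1.52% of all genes, and without K15-SKO replicate 3 they became 6 with Slc25a42, beside 3.40% of all genes.

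As a list the carriers lay close to the rest of the transcriptome. Their median log2 fold change was -0.16 and that of all genes tested -0.12, a difference of -0.03. Of the 37 fold changes 33 were negative as deposited, beside 77.0% of all genes, and 24 were negative under median-of-ratios scaling, which moved the median of all genes to 0.00. Fold changes below are on the scale of log2(FPKM + 0.5), K15-SKO over MyoCre, and are as deposited unless set against the all-gene median.

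**Figure D2:**
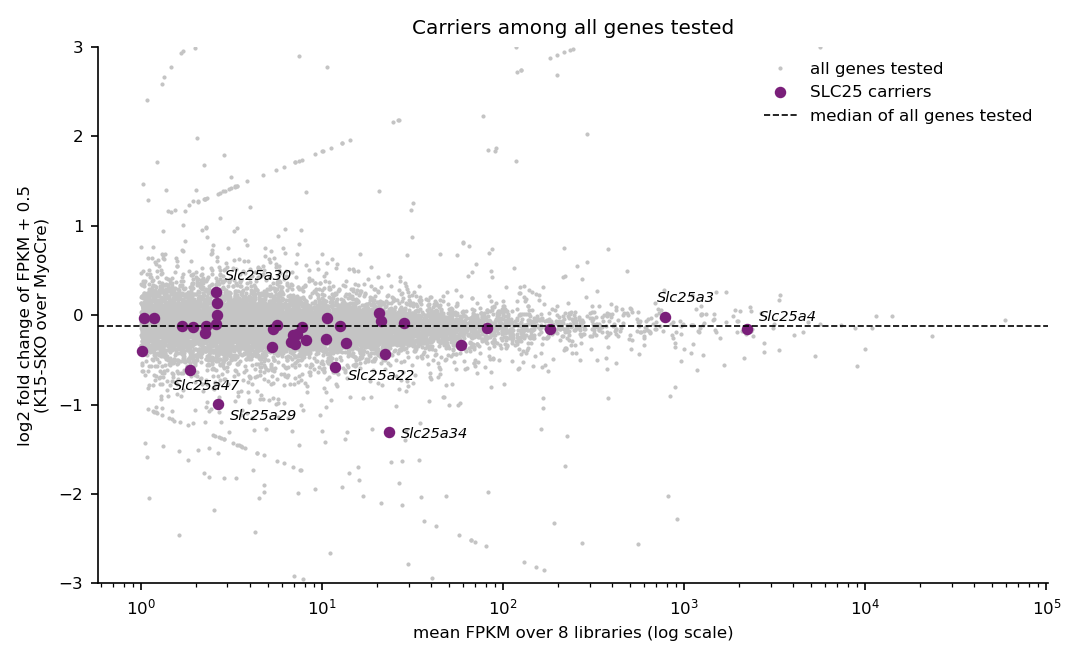
Mean FPKM over 8 libraries (horizontal, log scale) against the log2 fold change, K15-SKO over MyoCre (vertical), for all genes tested (grey) and the 37 carriers (purple). The dashed line is the median of all genes tested, -0.12, and 72 genes beyond 3 log2 units, 54 of them higher in K15-SKO, are not drawn. Most carriers lie close to the dashed line, with Slc25a34 at -1.30 and Slc25a29 at -0.99.

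Slc25a34, a carrier whose substrate is not settled, had the most negative fold change of the 37. It measured 29.3, 30.7, 40.8 and 30.1 FPKM in MyoCre replicates 1 to 4, and 8.07, 21.3, 16.0 and 9.81 FPKM in K15-SKO replicates 1 to 4. The groups did not overlap, and the K15-SKO libraries ranged more widely around their mean than the controls. The K15-SKO mean was 42.2% of the control mean, 13.8 ± 6.06 against 32.7 ± 5.41 FPKM (log2 fold change -1.30, 95% interval -1.88 to -0.72). It just missed the threshold over all genes, with a limma adjusted p of 0.0534, and a log2 fold change relative to the all-gene median of -1.18. The adjusted p was under the threshold in 5 of 20 alternative fits, among them the replicate block (0.0172). Over the 20 it ran from 0.00783 without K15-SKO replicate 2, the highest of its group, to 0.453. The latter came with median-of-ratios scaling after genes at 0 in all libraries of a genotype were left out. Its closest relative in the family, Slc25a35, was about 10 times less abundant, at 2.39 ± 0.55 FPKM in MyoCre muscle and 2.19 ± 0.68 FPKM in K15-SKO muscle (log2 fold change -0.12).

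Slc25a29 carries the basic amino acids ornithine, lysine and arginine across the inner membrane. Its MyoCre libraries held 3.32, 3.72, 4.16 and 3.50 FPKM, and its K15-SKO libraries 2.11, 1.99, 1.27 and 1.19 FPKM. Every K15-SKO library was thus below every control, with K15-SKO replicates 3 and 4 the lowest. The gene fell to 44.6% of the control level, from 3.67 ± 0.36 on average to 1.64 ± 0.48 FPKM (log2 fold change -0.99 with an SE of 0.19, limma adjusted p = 0.0355), or by 0.87 against the all-gene median. The call passed in 8 of 19 alternative fits and kept an adjusted p of 0.0354 under median-of-ratios scaling. It was lost without MyoCre replicates 1, 2, 3 or 4 (adjusted p = 0.0977, 0.0969, 0.207 and 0.0924), without K15-SKO replicates 3 or 4 (0.132 and 0.102) and when genes at 0 in all libraries of a genotype were left out (0.0986). Leaving out those genes under median-of-ratios scaling lost it too (0.156). So did no robust variances (0.0640), no filter on low values (0.0883) and a replicate block (0.0505). An estimated 17 fragments stood behind the lowest library, K15-SKO replicate 4, which gives a counting error of 24.4%, and an estimated 161 behind MyoCre replicate 2, the deepest.

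The promoters of these lower carriers are shown because the comparison deletes a factor of the Kruppel-like family, whose members bind CACCC boxes and GC-rich sites. The windows are RefSeq's for GRCm38.p6, from 250 bases before to 50 after the gene's start, both on the minus strand: Slc25a34 at chr4:141623785-141624084 and Slc25a29 at chr12:108835827-108836126. Capitals mark matches, on either strand, to CACCC with its reverse complement GGGTG, to the GC box GGGCGG with its reverse complement CCGCCC, and to the nuclear receptor half-site AGGTCA with its reverse complement TGACCT.
Slc25a34: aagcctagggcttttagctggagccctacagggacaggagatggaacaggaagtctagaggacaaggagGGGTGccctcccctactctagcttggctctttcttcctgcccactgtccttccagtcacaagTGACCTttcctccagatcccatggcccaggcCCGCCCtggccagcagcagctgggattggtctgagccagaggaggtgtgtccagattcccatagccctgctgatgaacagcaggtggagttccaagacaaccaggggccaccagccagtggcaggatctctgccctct
Slc25a29: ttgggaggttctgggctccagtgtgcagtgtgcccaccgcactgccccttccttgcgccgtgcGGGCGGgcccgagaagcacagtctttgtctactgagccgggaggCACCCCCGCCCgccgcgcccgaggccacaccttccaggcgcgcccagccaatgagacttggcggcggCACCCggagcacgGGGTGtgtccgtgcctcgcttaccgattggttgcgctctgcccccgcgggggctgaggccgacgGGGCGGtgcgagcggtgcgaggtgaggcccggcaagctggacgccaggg

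The Slc25a34 window held 1 CACCC match, 1 GC box and 1 half-site, with 59.0% G and C. The Slc25a29 window held 3 CACCC matches, 3 GC boxes and 0 half-sites, with 72.3% G and C, and there 1 of the CACCC matches adjoins a GC box without overlap. Such matches are common: CACCC was found in 57.5% of the 32851 promoter windows of the table, the GC box in 35.7% and the half-site in 16.3%. Of the 37 carriers, 28 had windows in the table, and of their 36 windows 63.9% held CACCC, 88.9% the GC box and 11.1% the half-site. A match is a string of letters and was not tested as a binding site.

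Slc25a47, a member best known from liver, lies beside Slc25a29 on chromosome 12 and is singled out for that position, chosen after its values were seen. In GENCODE M21 the gene models of Slc25a29 (108825873 to 108835883, minus strand) and Slc25a47 (108836046 to 108856815, plus strand) stand head to head with 163 bases between their outermost starts. RefSeq places the start of Slc25a47 at 108851129, which is 15253 bases from that of Slc25a29, so the close arrangement rests on non-coding transcripts in GENCODE. Whether the deposited values of Slc25a47 count such transcripts is not stated. Slc25a47 measured 2.06, 1.80, 4.22 and 1.44 FPKM in MyoCre muscle and 2.07, 1.56, 1.00 and 0.757 FPKM in K15-SKO muscle. MyoCre replicate 3 was far above the rest, the groups overlapped, and the gene missed the threshold (log2 fold change -0.61, SE 0.29, adjusted p = 0.957). In both genes K15-SKO replicates 3 and 4 were the lowest libraries and MyoCre replicate 3 the highest. Such an order was not particular to these neighbours. Of the 37 carriers, MyoCre replicate 3 was the highest library for 17 and the lowest for 0. K15-SKO replicate 3 was the lowest for 15 and the highest for 7, and K15-SKO replicate 4 the lowest for 8 and the highest for 4. A link between the neighbours was not tested.

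**Figure D3:**
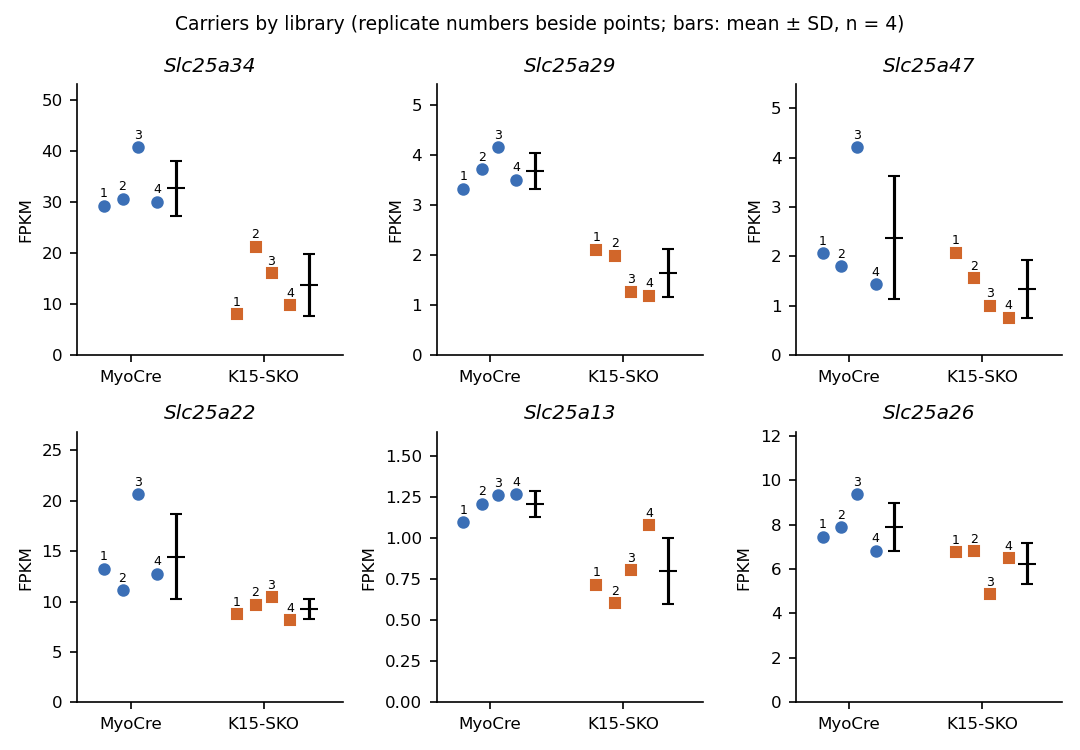
FPKM of 6 carriers in each library (circles MyoCre, squares K15-SKO, replicate numbers beside the points), with the mean ± SD of 4 libraries as a black bar. The genotypes do not overlap except for Slc25a47, and MyoCre replicate 3 is the highest library in all panels but that of Slc25a13.

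Of the 7 amino acid carriers, 1 passed the test, Slc25a29. All 7 had fold changes below the median of all genes, with a group median of -0.30 against -0.12. Of all 37 carriers 23 lay below it. Slc25a15 and Slc25a12 did so only narrowly, at -0.010 and -0.016 log2 units relative to that median. Of the 6 that averaged at least 1 FPKM in both genotypes, Slc25a29 and Slc25a22 had genotypes that did not overlap, and the median was -0.26. Slc25a22, which brings glutamate into the matrix, held 13.2, 11.1, 20.6 and 12.8 FPKM in MyoCre muscle and 8.73, 9.68, 10.4 and 8.15 FPKM in K15-SKO muscle. The control spread came mostly from MyoCre replicate 3, and the highest K15-SKO library was close to the lowest control (log2 fold change -0.58, SE 0.20, adjusted p = 0.770). Its adjusted p was lowest, 0.0862, with library weights, and its groups overlapped after median-of-ratios scaling.

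Slc25a13 and Slc25a12 are the calcium-regulated aspartate/glutamate carriers of the malate-aspartate shuttle. Slc25a12 was by far the more abundant in this muscle, and Slc25a13 was the lowest of all 37. Slc25a13 held 1.10, 1.21, 1.26 and 1.27 FPKM in MyoCre muscle and 0.717, 0.604, 0.808 and 1.08 FPKM in K15-SKO muscle. The groups were separated by a narrow gap that closed under median-of-ratios scaling (log2 fold change -0.40, SE 0.20, adjusted p = 0.957). That direction was favoured by the minimum, which Slc25a13 reached through its MyoCre level (K15-SKO mean 0.802 FPKM). Slc25a12 held 73.1, 82.9, 96.9 and 89.3 FPKM against 86.3, 72.6, 65.4 and 86.5 FPKM, and the groups overlapped in part (log2 fold change -0.14, limma adjusted p = 0.957). With library weights the fold change was 0.03, the 1 alternative in which its sign turned.

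The remaining amino acid carriers differed less. Slc25a38, which supplies mitochondria with glycine for haem synthesis, measured 7.55 ± 2.10 FPKM in MyoCre muscle and 5.91 ± 0.91 FPKM in K15-SKO muscle. Slc25a44, the carrier of branched-chain amino acids, measured 7.80 ± 0.77 and 6.66 ± 0.53 FPKM (log2 fold change -0.21, 95% interval -0.56 to 0.14). Slc25a15, the ornithine/citrulline carrier, measured 8.02 ± 1.31 and 7.38 ± 1.91 FPKM (log2 fold change -0.13). None of the 3 passed the test.

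Among 8 tested genes of basic amino acid, proline and polyamine metabolism 0 passed the threshold over all genes. At an unadjusted p under 0.05 in limma 4 were lower, beside 3.43% of all genes, in a list chosen with earlier results known. The median log2 fold change of the list was -0.41, against -0.12 for all genes. Oat, which converts ornithine to glutamate semialdehyde, measured 61.5 ± 11.2 FPKM in MyoCre muscle and 35.5 ± 4.20 in the K15-SKO libraries (adjusted p = 0.123), and Aldh4a1, the next enzyme towards glutamate, 27.3 ± 4.91 and 15.6 ± 1.93 FPKM (adjusted p = 0.140). In both of these enzymes all K15-SKO libraries lay below all MyoCre libraries, as they did in 2.72% of all genes. Prodh (adjusted p = 0.469) and Asl (adjusted p = 0.957) were the other two.

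**Figure D4:**
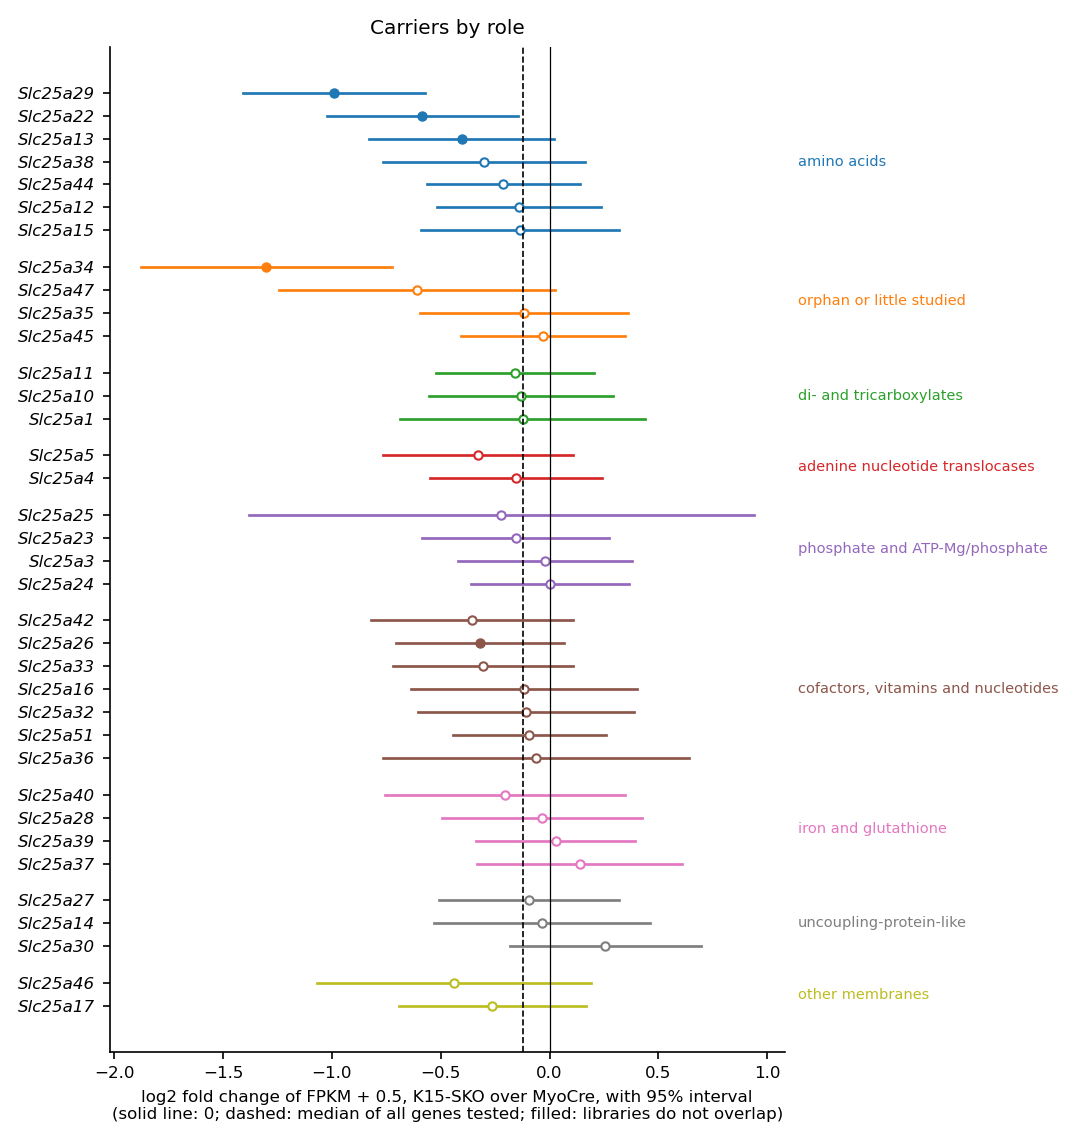
Log2 fold changes (horizontal, K15-SKO over MyoCre) of 36 of the 37 carriers grouped by role, with 95% intervals from limma. The solid line marks 0, the dashed line the median of all genes tested (-0.12), and filled points are carriers whose libraries do not overlap between genotypes. All 7 amino acid carriers lie to the left of the dashed line, Slc25a15 and Slc25a12 only narrowly. The intervals of Slc25a29, Slc25a22 and Slc25a34 lie wholly below 0.

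The carriers that serve ATP synthesis showed no difference past the threshold. Slc25a4 held 2211.9, 2373, 2558 and 2135 FPKM in MyoCre muscle and 2312, 2373, 1613 and 2103 FPKM in K15-SKO muscle. K15-SKO replicate 3 was the low library, and the other 3 lay within the control range or just under it (log2 fold change -0.16, 95% interval -0.55 to 0.24, adjusted p = 0.957). Slc25a5, the exchanger of most other tissues, held 44.3, 83.8, 67.4 and 68.1 FPKM against 49.2, 56.5, 52.2 and 46.9 FPKM. Its lowest and its highest library were both controls (log2 fold change -0.33, 95% interval -0.76 to 0.11). The sequences of Slc25a4, Slc25a5 and processed copies of Slc25a5 are alike, and the sources used here do not say how reads that match several of them were counted.

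Slc25a3 held 724, 772, 870.5 and 767 FPKM in MyoCre muscle and 819, 714, 616 and 978 FPKM in K15-SKO muscle. The means were nearly equal and the K15-SKO libraries enclosed the controls (log2 fold change -0.02, 95% interval -0.42 to 0.38), with a sign that turned under 8 of 20 alternatives. The calcium-regulated ATP-Mg/phosphate carriers were much lower in level. Slc25a23 measured 5.68 ± 1.24 and 5.01 ± 0.83 FPKM, and Slc25a24 2.63 ± 0.41 and 2.62 ± 0.17 FPKM. Slc25a25 had the largest standard error of the 37 fold changes, with 3.32, 7.22, 11.3 and 6.99 FPKM in MyoCre muscle and 7.04, 4.68, 12.3 and 2.30 FPKM in K15-SKO muscle. Its highest and lowest libraries were both K15-SKO and differed 5.35-fold (log2 fold change -0.22, 95% interval -1.38 to 0.94).

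The di- and tricarboxylate carriers also stayed within the spread of the libraries. Slc25a11 held 177, 206, 222 and 164 FPKM in MyoCre muscle and 178, 185.5, 160 and 163 FPKM in K15-SKO muscle, so that the groups overlapped (log2 fold change -0.16, adjusted p = 0.957). Slc25a10, the dicarboxylate carrier, measured 2.05 ± 0.43 and 1.82 ± 0.40 FPKM, and Slc25a1, which exports citrate for lipid synthesis, 1.74 ± 0.36 and 1.65 ± 0.79 FPKM. Of 7 enzymes of the malate-aspartate and glycerol phosphate shuttles, 0 passed the threshold in either direction, with a median log2 fold change of -0.20. Got2, the mitochondrial aspartate transaminase that works with Slc25a12, measured 191 ± 22.1 and 161 ± 12.3 FPKM (log2 fold change -0.24).

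Of 8 carriers of cofactors and nucleotides, 0 passed the threshold and 4 had fold changes under the all-gene median. Slc25a26, which imports S-adenosylmethionine, held 7.46, 7.89, 9.36 and 6.83 FPKM in MyoCre muscle and 6.76, 6.81, 4.86 and 6.49 FPKM in K15-SKO muscle. The groups touched without overlapping, 6.83 against 6.81 FPKM, and they also stayed apart after median-of-ratios scaling (log2 fold change -0.32, 95% interval -0.71 to 0.07, adjusted p = 0.957). Slc25a51, the NAD carrier, was the most abundant of the role and among the steadiest carriers, with 31.8, 30.2, 30.6 and 25.2 FPKM against 26.2, 29.5, 25.9 and 28.5 FPKM (log2 fold change -0.09; above 0 with upper-quartile, quantile or median-of-ratios scaling).

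Slc25a42 imports coenzyme A. It held 6.53, 5.16, 7.26 and 4.93 FPKM in MyoCre muscle and 3.59, 3.90, 6.84 and 4.24 FPKM in K15-SKO muscle, where replicate 3 alone reached into the control range (log2 fold change -0.36, adjusted p = 0.957). Among 8 genes of coenzyme A synthesis 0 passed the threshold over all genes and 1 was lower at an unadjusted p under 0.05, beside 3.43% of all genes. This was Pank1, a pantothenate kinase of the first step, with 26.8 ± 2.92 and 17.6 ± 2.42 FPKM and genotypes that did not overlap (adjusted p = 0.431).

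Further cofactor carriers overlapped between the genotypes. The pyrimidine nucleotide carriers Slc25a33 and Slc25a36 measured 15.1 ± 2.78 and 12.1 ± 1.77 FPKM, and 20.9 ± 5.48 and 21.5 ± 11.1 FPKM, with the control value first. Slc25a32, linked to folate and flavin import, measured 5.86 ± 1.43 and 5.42 ± 1.43 FPKM, and Slc25a16 12.9 ± 3.13 and 12.04 ± 3.78 FPKM.

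The 4 iron and glutathione carriers had log2 fold changes from -0.20 to 0.14, and 0 passed the threshold. Slc25a28 and Slc25a37 are the mitoferrins, which bring iron to haem and iron-sulphur synthesis; Slc25a28 measured 10.8 ± 2.84 and 10.4 ± 1.90 FPKM. Slc25a37, the form of red cell precursors, measured 2.50 ± 0.69 and 2.77 ± 0.61 FPKM (log2 fold change 0.14). Its highest library was K15-SKO replicate 3, with 3.40 FPKM, which also held the most erythroid marker RNA. K15-SKO replicate 4 followed with 3.19 FPKM at 334.9 FPKM of erythroid markers, while K15-SKO replicate 2 had 2.25 FPKM at 578.1. The part of such cells in the level of Slc25a37 was not tested. The glutathione carriers Slc25a39 and Slc25a40 measured 20.3 ± 2.65 and 20.7 ± 1.87 FPKM, and 2.43 ± 0.73 and 2.10 ± 0.85 FPKM. Of 15 genes of haem and iron-sulphur synthesis 0 passed the threshold, with a median log2 fold change of -0.13.

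Slc25a30, related in sequence to the uncoupling proteins, had the highest fold change of the 37, with 2.36 ± 0.68 FPKM in MyoCre muscle and 2.84 ± 0.32 FPKM in K15-SKO muscle (log2 fold change 0.26, 95% interval -0.18 to 0.69, adjusted p = 0.957). Slc25a14 and Slc25a27 of the same branch measured 1.07 ± 0.40 and 1.01 ± 0.26 FPKM, and 2.69 ± 0.51 and 2.49 ± 0.51 FPKM. Slc25a45, a little-studied member, was nearly constant, at 1.19 ± 0.041 and 1.16 ± 0.10 FPKM, and ranged 1.20-fold over the 8 libraries. A pair of carriers works outside the inner membrane. Slc25a46 of the outer membrane, linked to mitochondrial dynamics, measured 25.2 ± 6.93 and 19.2 ± 8.30 FPKM, and Slc25a17 of peroxisomes 11.5 ± 2.50 and 9.43 ± 1.45 FPKM.

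Family members with other names and transporters outside the family held few genes past the threshold. Of 4 tested members, the uncoupling proteins Ucp2 and Ucp3 and the outer membrane proteins Mtch1 and Mtch2, 0 passed, with log2 fold changes from -0.29 for Ucp3 to 0.18 for Ucp2. Of 24 other transporters of the mitochondrial membranes, such as the pyruvate carrier subunits, the sideroflexins, the calcium uniporter and the porins, 0 were lower and 1 was higher past the threshold. This was Abcb10, which was listed at 0 in all 4 MyoCre libraries and measured 7.82, 8.87, 6.0 and 7.34 FPKM in K15-SKO muscle. Since such a 0 can be a failed estimate, no direction or fold change is drawn from it. The median log2 fold change of the 24 was -0.13, close to that of the carriers and of all genes.

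Carriers that share a substrate or are close relatives were compared as ratios within each library, since a ratio does not depend on how the libraries were scaled. Of 9 such pairs, 2 had ratios that did not overlap between the genotypes. In both, the first carrier had genotypes that did not overlap on its own, so the ratios repeat that separation in part. The share of such ratios among other gene pairs was not measured. Slc25a29 stood at 0.379 to 0.511 of Slc25a15 in MyoCre and at 0.124 to 0.282 of it in K15-SKO muscle, a difference of -1.06 in the mean log2 ratio. Slc25a13 stood at 0.0130 to 0.0150 of Slc25a12 in MyoCre and at 0.00832 to 0.0125 in K15-SKO muscle, a difference of -0.48. No p is given for this pair because Slc25a13 entered the set through its MyoCre level. The ratio of Slc25a29 to Slc25a15 gave p = 0.0286 in a two-sided exact permutation test (n = 4 each), the smallest it can give. Since Slc25a29 had been called before, this p is no separate support. It missed the threshold, at 0.129, after Benjamini-Hochberg adjustment over the 9 pairs. That adjustment counted the p of the Slc25a13 pair. Without that pair the adjusted values of Slc25a29 to Slc25a15 and of Slc25a34 to Slc25a35 would be larger. Slc25a34 was 11.3 to 18.0 times as abundant as Slc25a35 in MyoCre and 3.28 to 14.8 times in K15-SKO muscle, where replicate 2 reached into the control range (exact permutation p = 0.114, adjusted 0.343). The ratio of Slc25a4 to Slc25a5, at 28.3 to 49.9 and 30.9 to 47.0, and the other 5 pairs overlapped, with adjusted p-values of 0.629.

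Part of the spread of the carriers was common to whole libraries. MyoCre replicate 3 was the highest library for 17 of 37 carriers and the lowest for 0, and K15-SKO replicate 3 was the lowest for 15 and the highest for 7. Relative to each carrier's mean over the 8 libraries, the median carrier stood at 0.26 log2 units in MyoCre replicate 3, where the median of all genes stood at 0.19, and at -0.21 in K15-SKO replicate 3, where it stood at -0.29. K15-SKO replicate 2 was the library in which the carriers lay farthest below all genes, at -0.08 against 0.08. Within a genotype the median coefficient of variation of the carriers was 20.7% in MyoCre and 20.4% in K15-SKO muscle, beside 17.9% and 23.3% over the 12376 tested genes with a value in both genotypes.

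**Figure D5:**
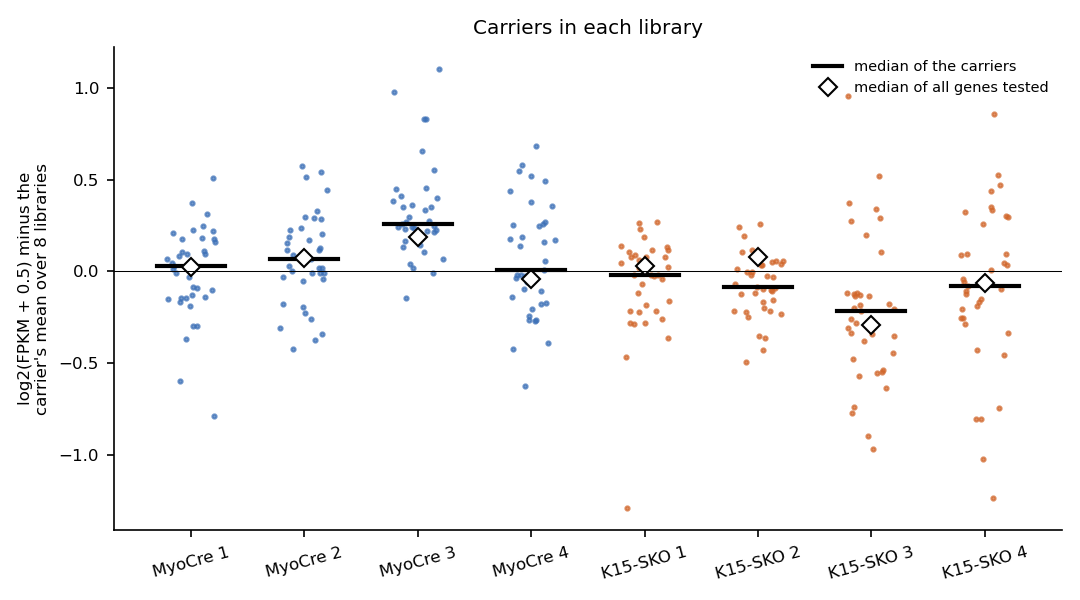
Log2(FPKM + 0.5) of the 37 carriers in each library, less the carrier's mean over 8 libraries. Points are carriers, black bars the median carrier and open diamonds the median of all genes tested. MyoCre replicate 3 sits highest (0.26) and K15-SKO replicate 3 lowest (-0.21), and in both the diamond lies on the same side of 0. In MyoCre replicate 4 and K15-SKO replicates 1 and 2 the bar and the diamond lie on opposite sides of 0.

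Summed levels of markers of other cell types in the muscle varied between libraries, and their part in the carriers' values was not tested. All 5 tested adipocyte markers had fold changes below the median of all genes, none past the threshold, with sums of 40.0 to 62.1 FPKM over the MyoCre and 14.3 to 56.1 FPKM over the K15-SKO libraries. Of the brown fat markers, Cidea measured 2.54 to 4.34 and 1.73 to 2.69 FPKM, while Ucp1 and Elovl3 were listed at 0 in 7 of 8 libraries and reached 0.062 and 0.071 FPKM in the other. All 8 fibroblast and tendon markers lay below the median of all genes as well (571.8 to 1032.5 and 430.7 to 768.1 FPKM), as did all 4 tested leukocyte markers (11.8 to 12.3 and 5.91 to 12.2 FPKM). All 6 endothelial markers lay above the median of all genes (83.8 to 117 and 109 to 134 FPKM), and 3 of 4 Schwann cell markers below it (54.3 to 59.7 and 44.9 to 62.2 FPKM). All 5 tested erythroid markers lay above it, with a median log2 fold change of 0.80 and the highest sum in K15-SKO replicate 3 (284.1 to 459.1 FPKM in MyoCre, 320.6 to 2039 FPKM in K15-SKO and at most 578.1 FPKM there without that library). Of these lists, 0 members passed the threshold, and no marker was listed at 0 in all 8 libraries.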

How the data were processed

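RNA from 8 soleus libraries, 4 per genotype, was examined as 1 table deposited by the authors. The deposited values are taken to be FPKM, since they are not whole, have no common total, and Cufflinks and Cuffdiff stand beside STAR and mm10 in the submitters' processing notes. The sources used here state no version, annotation release, strand setting or library scaling, so reads of overlapping or antisense genes may be mixed. The table held 0 further value columns. Depth was estimated from single-transcript genes over 1 kb (GENCODE M21), as the smallest common step of the product of length and FPKM. With no counts, no count model was run.

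Genes averaging 1 FPKM or more were put on the scale log2(FPKM + 0.5) and compared with limma 3.58.1 (R 4.3.3), with the genotype alone in the model, a trend, robust variances, two-sided tests and Benjamini-Hochberg adjustment over all genes tested (threshold 0.05). The fit was tried on simulated data with independent noise, no shifts between whole libraries and no genes at 0 in all libraries of a genotype. These data have both such shifts and such genes, so that trial does not measure how well the fit does here. Errors are SD over 4 libraries or moderated SE. A fold change on this scale understates that of low genes. The carriers and gene lists were chosen with earlier results of these data known, so no list was given a p of its own. The carriers are named, except 1 whose values, like those of 1 gene of another list, are not reported here. Values in each library are given for Slc25a34, Slc25a29, carriers with an unadjusted p under 0.05 or with no overlap between genotypes, the 6 most abundant, and some chosen after their values were seen (Slc25a47, Slc25a25, Slc25a42). From other lists, members with an unadjusted p under 0.05 or among the 3 smallest could be named, and Mtch1, Got2, Ckm, Mb, Myh7, Acta1, Cox4i1, Ucp1 and Elovl3 were chosen after their values were seen. Alternatives were other pseudocounts, filters and scalings, no robust variances, library weights, a replicate block, leaving out single libraries, and leaving out genes at 0 in all libraries of a genotype. Coordinates are from GENCODE M21 (GRCm38), which holds 23896 of the table's 24033 gene IDs, or from RefSeq for GRCm38.p6.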

Additional observations from a re-analysis of the deposited data

Results flagged for a closer look

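Among 74 groups of 4 values (37 carriers in each genotype), 4 held a library far from the other 3 of its group, where chance at 1 in 20 gives 3.7. Slc25a34 had 40.8 FPKM in MyoCre replicate 3, against 29.3 to 30.7 in the other controls. The other such values were all in K15-SKO replicate 3, the library that stood apart: Slc25a26 with 4.86 FPKM against 6.49 to 6.81, Slc25a24 with 2.37 against 2.69 to 2.71, and Slc25a39 with 23.4 against 19.4 to 20.0 FPKM.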

How the results depend on the processing

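The number of carriers past the threshold, 1 lower as reported, was 2 (Slc25a29 and Slc25a34) with a pseudocount of 1 and with library weights. It was 0 with no filter on low values, with no robust variances, without genes at 0 in all libraries of a genotype, and with that and median-of-ratios scaling together, an alternative chosen after seeing the data. Leaving out single libraries gave 0 to 2. With a minimum mean of 5 it was 1, Slc25a34, because Slc25a29 was no longer tested. With the replicate block it was also 1, Slc25a34 (adjusted p = 0.0172) in place of Slc25a29 (0.0505). Same-numbered libraries deviated together in 3 of 4 pairs only, with correlations of 0.10, 0.23, 0.0022 and 0.28 for replicates 1 to 4. The best correlation with another number was 0.018, 0.13, 0.10 and -0.075. The best partner was thus the same number in 3 of 4, and whether the numbers pair the mice was not settled. The block was kept as an alternative only. In limma 0 carriers were higher under every alternative run. Slc25a29, Slc25a34, Slc25a22, Slc25a13 and Slc25a26 kept negative fold changes under every alternative that tested them.

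Klf15 stayed lower, but its adjusted p passed the threshold no longer at log2 fold changes of -1.28 without a filter, without robust variances and without the genes listed at 0, and at -1.15 under median-of-ratios scaling (alone or without the genes listed at 0), upper-quartile scaling (-1.15) and quantile normalization (-1.15). Leaving out single libraries gave -1.55 to -1.18, and the call was lost in 6 of the 8 such fits. The sign of Slc25a3 turned to 0.12 with median-of-ratios scaling, with or without the genes listed at 0, 0.11 with upper-quartile scaling, 0.060 with quantile normalization and 0.072 with library weights, and leaving out single libraries gave -0.14 to 0.087. That of Slc25a51 turned to 0.044 (median-of-ratios, with or without the genes listed at 0), 0.037 (upper-quartile) and 0.027 (quantile), and that of Slc25a12 to 0.028 (library weights). The causes were not tested. The median of the carriers relative to all genes moved by less than its spread between libraries under every alternative run. An estimated 18 and 17 fragments stood behind the lowest libraries of Slc25a13 and Slc25a29.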
